A study of Mus musculus with 21 samples.

Results

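The genes described here are Hdc and 8 genes that mark mast cells (Cpa3, Mcpt1, Mcpt2, Mcpt4, Tpsb2, Cma1, Fcer1a and Ms4a2), followed through 7 groups of mouse colon and colon tumour libraries. They were picked by symbol as mast cell proteases, chains of the IgE receptor and histidine decarboxylase, and all 9 were found among the 24062 genes of the count table. The choice was made with results of these data known: Hdc was known to be low in tumours of knock-in males, so every value of that contrast is given below as a description, with no test. Every other comparison that holds male tumours shares libraries with that contrast. These are tumours against normal colon in males of each genotype, female against male tumours, and the difference of the tumour effect between the sexes. In these comparisons no p is printed for Hdc, and its calls and its place in counts of members are descriptions that are not independent of the choice.

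Mast cells are tissue-resident immune cells that store histamine, heparin and proteases in granules and release them when IgE bound to the high-affinity receptor on their surface meets its antigen. Histidine decarboxylase, the product of Hdc, makes histamine from histidine. Rodent mast cells fall into a mucosal type, which sits in the epithelium and lamina propria and carries the chymases Mcpt1 and Mcpt2, and a connective tissue type in the submucosa and muscle, which carries Cma1, Mcpt4 and the tryptase Tpsb2. Hdc is also expressed by basophils, neutrophils and some other myeloid cells, and Cpa3 and the receptor chains also by basophils.

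All animals were C57BL/6 mice. They were either wild-type or carried App NL-G-F, a knock-in of the amyloid precursor protein gene with mutations linked to Alzheimer's disease. In males there were 4 groups, normal colon and tumours of wild-type mice and normal colon and tumours of knock-in mice. In females there were 3, normal colon and tumours of wild-type mice and normal colon of knock-in mice, and no knock-in female tumours were analysed here. Tumours came from animals given AOM/DSS, the carcinogen azoxymethane with the irritant dextran sulfate sodium. Normal colon is labelled as untreated, whereas the text of the series speaks of tissue beside tumours or of colon in which no tumour had formed. The labels give no ages. Each group held 3 libraries, and because the labels do not say that these came from separate animals, p-values measure the spread between libraries.

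Total counts ran from 3414123 in wild-type male tumour library 2 to 26174008 in wild-type female normal library 1. Levels are in CPM, read counts scaled to a common library size with the TMM method, and 3 counts, taken as the smallest measurable amount, corresponded to 0.127 CPM in the largest library and 0.873 CPM in the smallest. Wild-type female tumour libraries 2 and 3 and knock-in male tumour library 3 carry library numbers of 152 and above, apart from the run of the others. Library 1 of the wild-type male normal group held the highest level of all 9 genes in its group. Smooth muscle markers differed widely between tumour and normal colon, with all 9 of 9 lower in each of the 3 tumour comparisons, and their summed level ran from 209 to 1062 CPM in tumours and from 2018 to 9834 CPM in normal colon. The part of this in the results below was not tested. In bulk tissue, fewer cells of a type and less RNA per cell cannot be told apart.

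Where the genes sit in the mouse genome (GRCm38, GENCODE annotation) bears on how they are read. The chymase genes lie together on chromosome 14, Cma1 at chr14:55941451-55944675, Mcpt1 at chr14:56017971-56020384, Mcpt2 at chr14:56042041-56044642 and Mcpt4 at chr14:56059629-56062313. Hdc lies at chr2:126593667-126619299, Cpa3 at chr3:20215620-20242181, Tpsb2 at chr17:25366305-25369098, Fcer1a at chr1:173221284-173227214 and Ms4a2 at chr19:11615523-11623719. Although the chymases are related, stretches of 50 bases that recur exactly in another gene made up 5.48% of such stretches in Mcpt4 transcripts, all shared with Cma2, and 5.38% in Cma1, shared with Gm48934. Ms4a2 shared 2.1%, Hdc 0.141% and the other 5 genes none. Mcpt1 and Mcpt2 reads of that length could therefore be told apart.

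The region around the start of each gene is shown for 4 members, because GATA2 drives mast cell genes through GATA sites. Mcpt1 and Cpa3 are shown because they are set against Hdc below, and Mcpt4 as a chymase related to Mcpt1. Each sequence runs 5′ to 3′ on the gene's own strand from 250 bases before to 50 bases after the RefSeq start (RefSeq, GRCm38.p6), and capitals mark the letters GATAA, searched on both strands (the reverse complement is TTATC).
Mcpt1: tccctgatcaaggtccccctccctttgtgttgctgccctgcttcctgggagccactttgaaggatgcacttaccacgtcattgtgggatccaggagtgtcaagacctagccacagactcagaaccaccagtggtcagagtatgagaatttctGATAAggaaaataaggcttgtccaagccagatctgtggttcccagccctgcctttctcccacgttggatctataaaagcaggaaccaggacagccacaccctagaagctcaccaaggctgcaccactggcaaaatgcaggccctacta
Mcpt4: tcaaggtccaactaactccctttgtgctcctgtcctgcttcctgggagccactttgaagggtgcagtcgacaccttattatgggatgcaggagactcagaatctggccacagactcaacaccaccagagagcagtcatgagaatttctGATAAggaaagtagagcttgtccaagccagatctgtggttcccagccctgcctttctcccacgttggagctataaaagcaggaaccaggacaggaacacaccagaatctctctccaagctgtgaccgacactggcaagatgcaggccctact
Cpa3: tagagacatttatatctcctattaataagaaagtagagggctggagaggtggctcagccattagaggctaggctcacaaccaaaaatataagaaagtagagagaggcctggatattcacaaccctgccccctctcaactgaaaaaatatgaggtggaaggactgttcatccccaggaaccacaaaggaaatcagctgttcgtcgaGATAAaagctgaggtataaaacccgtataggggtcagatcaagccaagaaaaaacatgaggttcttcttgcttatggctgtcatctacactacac
Hdc: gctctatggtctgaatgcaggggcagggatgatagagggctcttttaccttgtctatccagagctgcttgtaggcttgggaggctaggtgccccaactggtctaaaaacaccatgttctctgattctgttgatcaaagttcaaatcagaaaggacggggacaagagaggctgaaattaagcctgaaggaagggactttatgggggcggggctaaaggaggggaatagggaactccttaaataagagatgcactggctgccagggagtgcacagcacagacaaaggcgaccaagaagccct
These windows lie at chr14:56017714-56018013 (plus strand), chr14:56062261-56062560 (minus), chr3:20242132-20242431 (minus) and chr2:126618629-126618928 (minus). The Mcpt1, Mcpt4 and Cpa3 windows span the start of the gene in GENCODE as well. The Hdc window lies wholly inside the GENCODE bounds of Hdc, downstream of its GENCODE start. Of the 7 members with an entry, 6 held GATAA on either strand, as did 25.4% of the 32851 promoter windows of the same length. The Hdc window did not hold it, but GATAA was the only string searched. Other letters after GATA, such as the gatag in the Hdc window, were not counted in any window. The match began at -98 in Mcpt1, at -102 in Mcpt4 and at -45 in Cpa3, counted from the start, and the Mcpt1 and Mcpt4 windows were 85.6% identical over 291 aligned bases. A match is a description of letters, not of a bound site.

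All 9 genes passed the filter on low counts. Between genes, levels were compared per kilobase of exon. In wild-type male tumours Mcpt1 had the highest mean at 11.3 CPM per kb, followed by Hdc at 6.70, Mcpt2 at 6.16, Cma1 at 4.85 and Tpsb2 at 3.25 CPM per kb. The Mcpt1 mean rests on library 3, and without it, a choice made after seeing the data, Hdc stood first at 6.05 and Mcpt1 next at 5.03 CPM per kb. Cpa3 stood at 1.34 CPM per kb, and Ms4a2, Mcpt4 and Fcer1a were below 1 CPM per kb. In knock-in female normal colon Cma1 led at 1.87 CPM per kb and the other 8 means were at or below 0.292 CPM per kb. Fcer1a, the ligand-binding chain of the IgE receptor, exceeded 3 counts in 5 of 21 libraries and reached at most 25 counts, so its differences were hardly measurable at this depth.

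**Figure D1:**
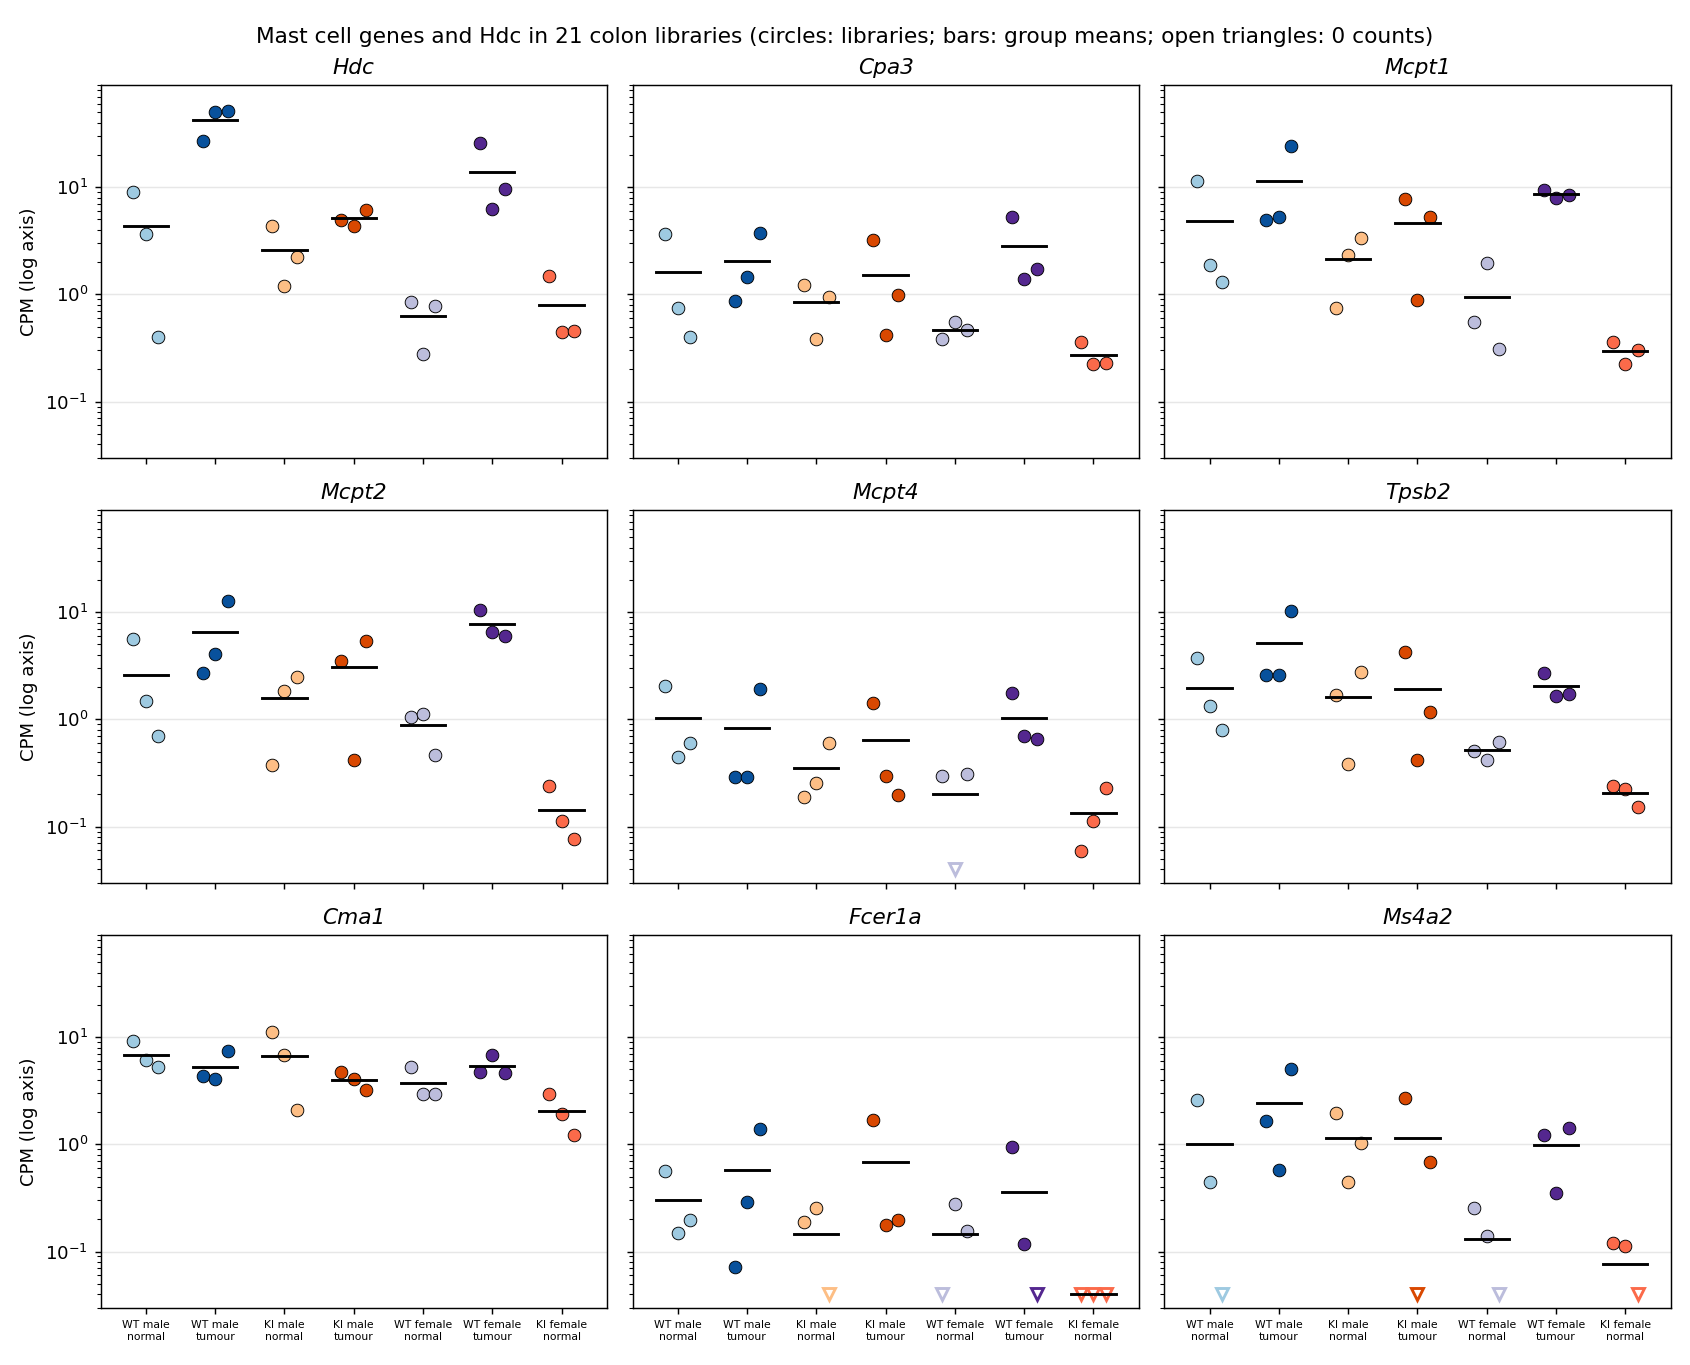
Level of each gene in each library, in CPM on a log axis, for the 7 groups (WT, wild-type, KI, knock-in; circles, libraries; bars, group means of 3 libraries; open triangles, libraries with 0 counts). Hdc stands between 26.7 and 51.1 CPM in wild-type male tumours and between 4.38 and 6.07 CPM in knock-in male tumours, whereas Cma1 stays between 1.22 and 11.1 CPM in all 21 libraries.

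Hdc, the histamine-producing enzyme, had the widest range of the 9 genes, with a standard deviation of 2.14 log2 units over the 21 libraries. It stood at 26.7, 50.6 and 51.1 CPM in wild-type male tumours, the highest group. Wild-type female tumours followed with 25.8, 6.32 and 9.68 CPM. Every wild-type male tumour library was above every other library of the series, the nearest being wild-type female tumour library 1.

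Knock-in male tumours gave 4.97, 4.38 and 6.07 CPM of Hdc and had the smallest ratio of highest to lowest library of the 7 groups, 1.39. Wild-type male normal colon gave 9.07, 3.67 and 0.398 CPM, and knock-in male normal colon 4.39, 1.20 and 2.25 CPM. The knock-in tumours thus lay within the range of wild-type male normal colon. Female normal colon was low in both genotypes, with 0.845, 0.279 and 0.774 CPM in wild-type and 1.49, 0.450 and 0.459 CPM in knock-in libraries, and the ranges overlapped.

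In order of their means, the 7 groups ran from wild-type male tumours (42.8 ± 13.95 CPM, SD, n = 3) through wild-type female tumours (13.9 ± 10.4) and knock-in male tumours (5.14 ± 0.86) to wild-type male normal (4.38 ± 4.38), knock-in male normal (2.61 ± 1.63), knock-in female normal (0.799 ± 0.597) and wild-type female normal colon (0.633 ± 0.309). Neighbours in that order did not overlap at the top, between wild-type male and female tumours, and between female tumours and knock-in male tumours, where the lowest female library, at 6.32 CPM, lay just above the highest knock-in library. All later neighbours overlapped.

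Genes were tested with the quasi-likelihood method of edgeR, and p-values were adjusted by Benjamini-Hochberg over 15936 genes. In wild-type males, Hdc was 9.33-fold higher in tumours than in normal colon (log2 fold change 3.22, SE 0.72). It was the only member called, 1 of 9, where 16.5% of all genes tested were called higher and 19.3% lower, and the only one with an unadjusted p under 0.05, as 45.3% of all genes had. It was also the only member whose groups did not overlap, against 26.0% of all genes higher without overlap. The median log2 fold change of the 9 was 1.23, against 0.01 over all genes tested, and 7 of the 9 values were above 0.

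The mucosal chymases had higher means in wild-type male tumours than in normal colon, with wide scatter. Mcpt1 gave 4.97, 5.24 and 24.3 CPM in tumours and 11.3, 1.87 and 1.29 CPM in normal colon. Normal library 1 lay above tumour libraries 1 and 2, so the groups overlapped (log2 fold change 1.24 with SE 0.83, adjusted p 0.259 by edgeR). Mcpt2 followed the same libraries, with 2.74, 4.07 and 12.8 CPM in tumours and 5.67, 1.5 and 0.696 CPM in normal colon (log2 fold change 1.29 with SE 0.79, adjusted p 0.219 by edgeR). Without normal library 1 both were called higher, Mcpt1 with a log2 fold change of 2.84 (edgeR adjusted p 0.0247) and Mcpt2 with 2.54 (edgeR adjusted p 0.0433), and the number of members called went from 1 to 3.

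The other mast cell genes also overlapped between tissues in wild-type males. Tpsb2, the tryptase, gave 2.59, 2.62 and 10.3 CPM in tumours and 3.73, 1.35 and 0.796 CPM in normal colon (log2 fold change 1.39 with SE 0.74, adjusted p 0.151 by edgeR). Carboxypeptidase Cpa3 had a log2 fold change of 0.29 (SE 0.78 and adjusted p 0.804 by edgeR), and its sign turned to -0.65 when tumour library 3 was left out. Cma1, the chymase of connective tissue mast cells, gave 4.32, 4.07 and 7.46 CPM in tumours and 9.26, 6.07 and 5.27 CPM in normal colon (log2 fold change -0.36 with SE 0.45, adjusted p 0.562 by edgeR). Tumours and normal colon overlapped for these 3 genes, and tumour library 3 was the highest tumour library for all 9 genes.

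In knock-in males no member was called between tumours and normal colon by edgeR, 0 of 9 at an adjusted and 0 of 9 at an unadjusted p under 0.05, and 0 by DESeq2. Of all genes, edgeR called 10.4% higher and 9.97% lower, and 35.9% had an unadjusted p under 0.05. Hdc was 1.99-fold higher on average with overlapping groups (log2 fold change 1.00 with SE 0.73), a value that rests on the tumours with which it was chosen. Mcpt1 gave 7.69, 0.887 and 5.29 CPM in tumours and 0.748, 2.34 and 3.37 CPM in normal colon (log2 fold change 1.08 with SE 0.87, adjusted p 0.391 by edgeR). Mcpt2 gave 3.47, 0.414 and 5.38 CPM in tumours and 0.374, 1.84 and 2.51 CPM in normal colon (log2 fold change 0.92 with SE 0.83, adjusted p 0.445 by edgeR). Tumour library 2 was the low one for both chymases, as it was for Cpa3 and Tpsb2 at 0.414 CPM each, and it held 0 counts of Ms4a2.

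Cma1 lay lower in knock-in tumours on average, at 4.70, 4.08 and 3.23 CPM against 11.1, 6.77 and 2.07 CPM in normal colon, with overlap (log2 fold change -0.72 with SE 0.45, adjusted p 0.253 by edgeR). The median over the 9 members was 0.90 against 0.01 over all genes tested, with 8 values above 0. No pair of groups was free of overlap for any member in this comparison, whereas 16.1% of all genes were higher and 17.5% lower without overlap.

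In wild-type females Hdc, Mcpt1, Mcpt2 and Cpa3 rose in tumours. Hdc was 19.9-fold higher (log2 fold change 4.32 with SE 0.87, adjusted p 0.000652 by edgeR), with every tumour library above every normal library. Mcpt1 gave 9.37, 7.95 and 8.48 CPM in tumours and 0.550, 1.95 and 0.310 CPM in normal colon (log2 fold change 3.28 with SE 0.99, adjusted p 0.0115 by edgeR). Mcpt2 gave 10.6, 6.55 and 5.98 CPM in tumours and 1.06, 1.11 and 0.465 CPM in normal colon (log2 fold change 3.06 with SE 0.90, adjusted p 0.00927 by edgeR). Neither gene overlapped between the groups, and the 3 tumour libraries lay close together for Mcpt1.

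Cpa3, the carboxypeptidase of both mast cell types, gave 5.30, 1.40 and 1.74 CPM in wild-type female tumours and 0.380, 0.557 and 0.465 CPM in normal colon (log2 fold change 2.61 with SE 0.91, adjusted p 0.0236 by edgeR). These normal values rest on 9, 4 and 3 counts. With Cpa3, 4 of 9 members were called higher and none lower, where 25.0% of all genes tested were called higher and 24.0% lower, and 6 of 9 had an unadjusted p under 0.05, against 55.1% of all genes. The groups did not overlap for 7 of 9 members, all higher in tumours, against 29.9% of all genes higher without overlap. Among these 7, Mcpt4 rests on 13, 6 and 6 counts in tumours against 7, 0 and 2 in normal colon. Ms4a2 rests on 9, 3 and 13 against 6, 1 and 0 counts. Normal library 1, with 7 and 6 of these counts, was the largest library of the series.

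The members of the connective tissue type and the receptor genes stayed short of the threshold in wild-type females. Tpsb2 gave 2.72, 1.64 and 1.74 CPM in tumours and 0.507, 0.418 and 0.619 CPM in normal colon (log2 fold change 1.96 with SE 0.89, adjusted p 0.0773 by edgeR), and Mcpt4 had a log2 fold change of 2.13 (SE 0.99 and adjusted p 0.0825 by edgeR). The groups of both genes did not overlap, and Tpsb2 was called when only the compared groups entered the fit (edgeR adjusted p 0.00469). Ms4a2, which encodes the receptor's beta chain, had a log2 fold change of 2.46 (SE 1.46 and adjusted p 0.174 by edgeR) on at most 13 counts in any of the 6 libraries. Cma1 was the member with the smallest difference, 4.75, 6.78 and 4.68 CPM against 5.28, 2.93 and 2.94 CPM (log2 fold change 0.50 with SE 0.46, adjusted p 0.390 by edgeR), and its groups overlapped.

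The median of the 9 log2 fold changes in wild-type females was 2.46, against 0.01 over all genes. Fcer1a enters that median with a fitted value only, since its normal libraries held 2 counts or fewer, and a higher value than the fitted one could move the median to at most 2.61, the value of Cpa3. Some calls in females rest on single libraries. Cpa3 was no longer called without normal library 1 (edgeR adjusted p 0.0927), normal library 3 (0.0543) or tumour library 1 (0.144), and Mcpt1 without normal library 1 (0.0616), which brought the members called from 4 to 2. The count was 3 without the libraries numbered 152 and above and 5 when the other groups were left out of the model. Mcpt1 also missed the threshold when tumour libraries 2 and 3, with numbers of 152 and above, were left out together (log2 fold change 3.43, edgeR adjusted p 0.0626), while Hdc and Mcpt2 were called in each of these fits.

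**Figure D2:**
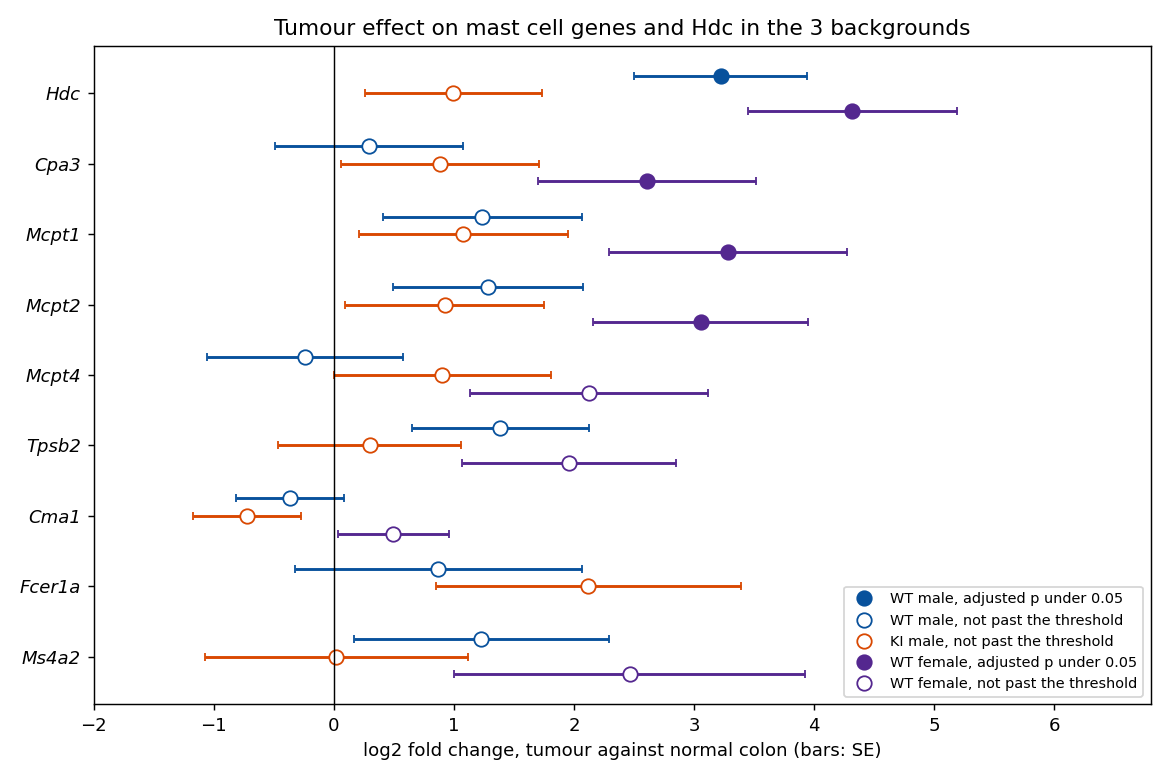
Log2 fold change of each member in tumours against normal colon with its SE, in wild-type (WT) males, knock-in (KI) males and wild-type females, 3 libraries in each group; filled points passed an adjusted p of 0.05. Hdc is filled in both wild-type comparisons, at 3.22 in males, whose tumours entered the choice of Hdc, and 4.32 in females, Mcpt1, Mcpt2 and Cpa3 are filled in females, and no knock-in point is filled; Fcer1a in females is left out because its normal libraries held 2 counts or fewer.

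The tumour effects of the 2 sexes were tested against each other in wild-type mice. No member differed by edgeR at an adjusted p under 0.05, and none at an unadjusted p under 0.05 or by DESeq2, where 1.12% of all genes were called in either direction and 13.8% had an unadjusted p under 0.05. The difference, female minus male, was 1.10 for Hdc (SE 1.09), 2.05 for Mcpt1 (SE 1.27 and adjusted p 0.527 by edgeR) and 2.31 for Cpa3 (SE 1.19 and adjusted p 0.412 by edgeR). The larger count of called members in females was therefore not shown to be a difference between the sexes. A direct comparison of wild-type female with wild-type male tumours also called no member by edgeR or DESeq2, where 0.860% of all genes were called in either direction. Of the members only Hdc, 1 of 9, had an unadjusted p under 0.05, as 3350 of the 15936 genes had, with a log2 fold change of -1.62 (SE 0.68), and it was lower in females without overlap, as 15.3% of all genes were. Tpsb2 had a log2 fold change of -1.39 (SE 0.76 and adjusted p 0.303 by edgeR).

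Between knock-in and wild-type male tumours, the contrast with which Hdc was chosen, Hdc was 8.32-fold lower in knock-in tumours, a log2 fold change of -3.06 (SE 0.72), and it alone of the 9 members was without overlap, where 16.1% of all genes were lower without overlap. The other 8 members overlapped between the groups. Tpsb2 had a log2 fold change of -1.45 (SE 0.74), Mcpt1 of -1.35 (SE 0.84), Ms4a2 of -1.19 (SE 1.08) and Mcpt2 of -1.14 (SE 0.80). Mcpt4 stood at -0.47 (SE 0.85), Cpa3 at -0.43 (SE 0.79), Cma1 at -0.42 (SE 0.46) and Fcer1a at 0.19 (SE 1.12). The median was -1.14, against 0.05 over all genes tested. Single libraries decided several of these values. Without wild-type tumour library 3, Mcpt4 moved to 1.15, Fcer1a to 2.41 and Cpa3 to 0.51. Without knock-in tumour library 1, Mcpt4 moved to -1.84, Fcer1a to -1.72, Tpsb2 to -2.84, Ms4a2 to -3.15 and Cpa3 to -1.66. With the replicate number as a block Fcer1a stood at -0.22. Hdc stayed between -3.35 and -2.90 with any 1 library left out.

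Hdc and the mast cell proteases could be set against each other within a library. In wild-type male tumours there were 30.9, 34.8 and 13.5 counts of Hdc per count of Cpa3, whereas the other 18 libraries held between 0.5 and 10.6. These wild-type male tumour ratios rest on only 12, 5 and 41 counts of Cpa3. Wild-type female tumours held 4.87, 4.5 and 5.56, and wild-type male normal colon 2.46, 4.9 and 1. Knock-in male tumours spread from 1.55 in library 1 to 10.6 in library 2, the library that was low in proteases. The female tumours thus carried Hdc and Cpa3 in nearly constant proportion, and the wild-type male tumours carried more Hdc per Cpa3 than any other library. Cpa3 had 39, 12 and 16 counts in the female tumours and 7 in knock-in male tumour library 2, so single ratios are imprecise. No interval was computed for them. These ratios use Hdc values on which the choice rests and are descriptive.

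**Figure D3:**
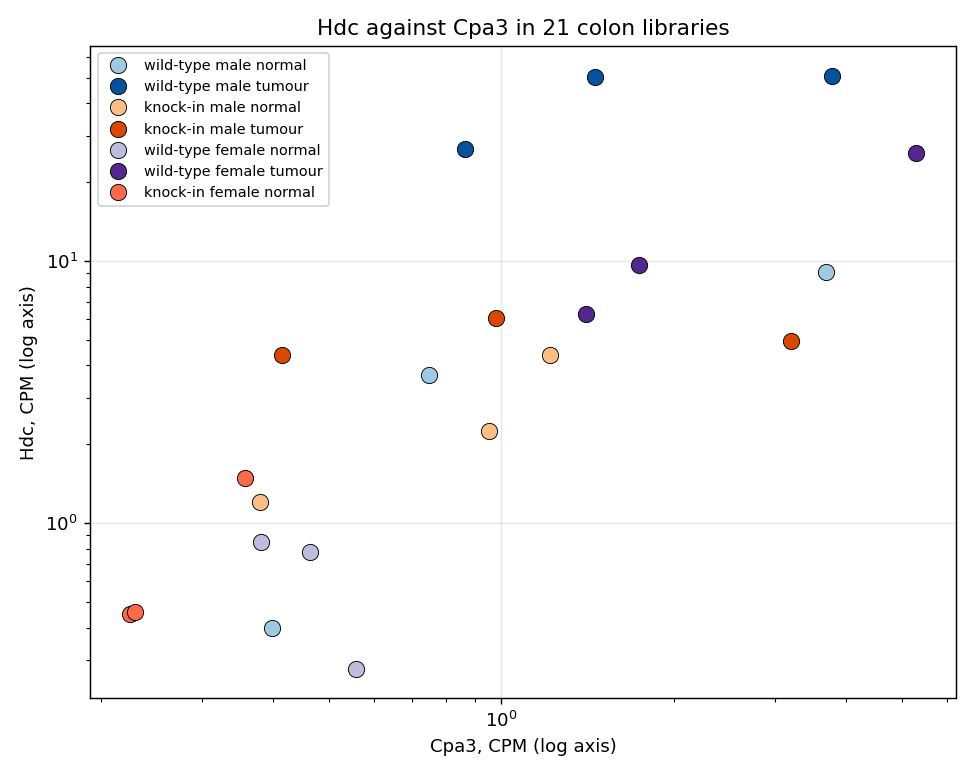
Hdc against Cpa3 in each of the 21 libraries, both in CPM on log axes, coloured by group. The 3 wild-type male tumour libraries lie above all others in Hdc, at 26.7 to 51.1 CPM, although their Cpa3, from 0.864 to 3.78 CPM, is within the range of the remaining libraries.

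Markers of other cells that express Hdc or that the tissue holds were read beside it. The proteases that define basophils, Mcpt8 and Prss34, had at most 4 and 1 counts in any library. The summed level of 5 basophil markers was nevertheless higher without overlap where Hdc was higher in wild-type tumours, at 9.58 to 13.97 CPM against 4.87 to 8.50 CPM in male normal colon and at 8.69 to 10.8 CPM against 3.07 to 5.73 CPM in female normal colon. In knock-in males it was 6.94 to 9.70 CPM in tumours and 8.21 to 10.6 CPM in normal colon. In male tumours this sum was mostly Il3ra, with means of 8.93 CPM in wild-type and 5.94 CPM in knock-in tumours. There Cd200r3 stood at 0.869 and 1.57 CPM, and Cd69 at 1.16 and 1.10 CPM. Of the 3 tested basophil genes, Il3ra, an interleukin 3 receptor chain that other blood cells and vessels also carry, was called higher in wild-type males (log2 fold change 0.96, adjusted p 0.0152 by edgeR) and wild-type females (1.92, adjusted p 5.67e-05 by edgeR). The male call was lost without normal library 3 (0.0827) or tumour library 2 (0.0656). In knock-in males Il3ra had 0.07 (adjusted p 0.881 by edgeR). The part of these cells in Hdc was not tested. The summed level of 9 neutrophil markers ran from 41.8 to 279 CPM in wild-type male tumours, from 41.9 to 1426 CPM in knock-in male tumours and from 77.3 to 180 CPM in wild-type female tumours. In normal colon it ran from 2.69 to 193 CPM in wild-type males, from 13.7 to 693 CPM in knock-in males, from 4.34 to 11.7 CPM in wild-type females and from 3.48 to 237 CPM in knock-in females. In wild-type female tumours 7 of 8 tested neutrophil genes were called higher, where 25.0% of all genes were. In wild-type male tumours 2 of 8 were, against 16.5% of all genes, and in knock-in male tumours 0 of 8, against 10.4%. The highest sums in males were carried by Ltf, lactoferrin, which had a mean of 593 CPM in knock-in and 77.0 CPM in wild-type male tumours. Without Ltf, a choice made after seeing the data, the other 8 markers summed to 34.8 to 54.7 CPM in knock-in, 33.6 to 66.4 CPM in wild-type male and 56.2 to 168 CPM in wild-type female tumours. In normal colon they then ran from 2.29 to 25.0 CPM over the 4 groups, below every tumour library. The male tumours of both genotypes thus overlapped in neutrophil markers. The part of neutrophils in Hdc was not tested. The summed level of 7 macrophage markers was 216 to 335 CPM in wild-type and 147 to 230 CPM in knock-in male tumours. It was 186 to 205 CPM in wild-type female tumours. In normal colon of wild-type males, knock-in males and wild-type females it was 157 to 263, 218 to 293.5 and 121 to 251 CPM. In the same order, 7 enteroendocrine markers summed to 96.0 to 134, 81.0 to 122 and 69.6 to 80.9 CPM in tumours. Their normal values were 162 to 296, 228 to 358 and 246 to 357 CPM. The sum of 4 eosinophil markers was at most 3.94 CPM in any library. None of these sums was tested for a part in Hdc.

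The mucosal share of the chymase counts, Mcpt1 and Mcpt2 as a percentage of Mcpt1, Mcpt2 and Cma1 together, does not depend on library size. Cma1 is its only connective tissue gene. In wild-type female tumours Mcpt4 and Tpsb2 had log2 fold changes of 2.13 and 1.96, against 0.50 for Cma1. In wild-type male tumours they had -0.24 and 1.39, against -0.36. Pearson's r within groups was 0.10 between Cma1 and Mcpt4 and 0.11 between Cma1 and Tpsb2. The share thus sets Mcpt1 and Mcpt2 against Cma1, and was not shown to separate mast cell types. Mcpt1, Mcpt2 and Cma1 have similar exon lengths, 1014, 1061 and 1090 bases. In wild-type female tumours the share was 80.8% (95% Wilson interval 74.4 to 85.8), 68.1% (61.05 to 74.5) and 75.6% (68.7 to 81.3). In wild-type female normal colon it was 23.3% (17.5 to 30.4), 51.2% (36.8 to 65.4) and 20.8% (9.25 to 40.5), without overlap with the tumours. Intervals cover counting error only.

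In wild-type male tumours the mucosal share was 64.1% (95% Wilson interval 56.6 to 71.0), 69.6% (55.2 to 80.9) and 83.3% (79.7 to 86.3). In wild-type male normal colon it was 64.8% (60.7 to 68.6), 35.7% (27.9 to 44.4) and 27.4% (18.5 to 38.6), where library 1 reached the tumours' range. Knock-in males gave 70.4% (64.2 to 75.9), 24.2% (16.5 to 33.9) and 76.8% (69.2 to 83.0) in tumours and 9.16% (5.32 to 15.3), 38.2% (31.2 to 45.6) and 73.9% (64.1 to 81.8) in normal colon, with wide overlap. Knock-in female normal colon was low throughout, at 16.7% (9.31 to 28.0), 15.0% (5.24 to 36.0) and 23.8% (10.6 to 45.1). The share was therefore split by tissue in wild-type females, and by tissue but for 1 normal library in wild-type males.

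**Figure D4:**
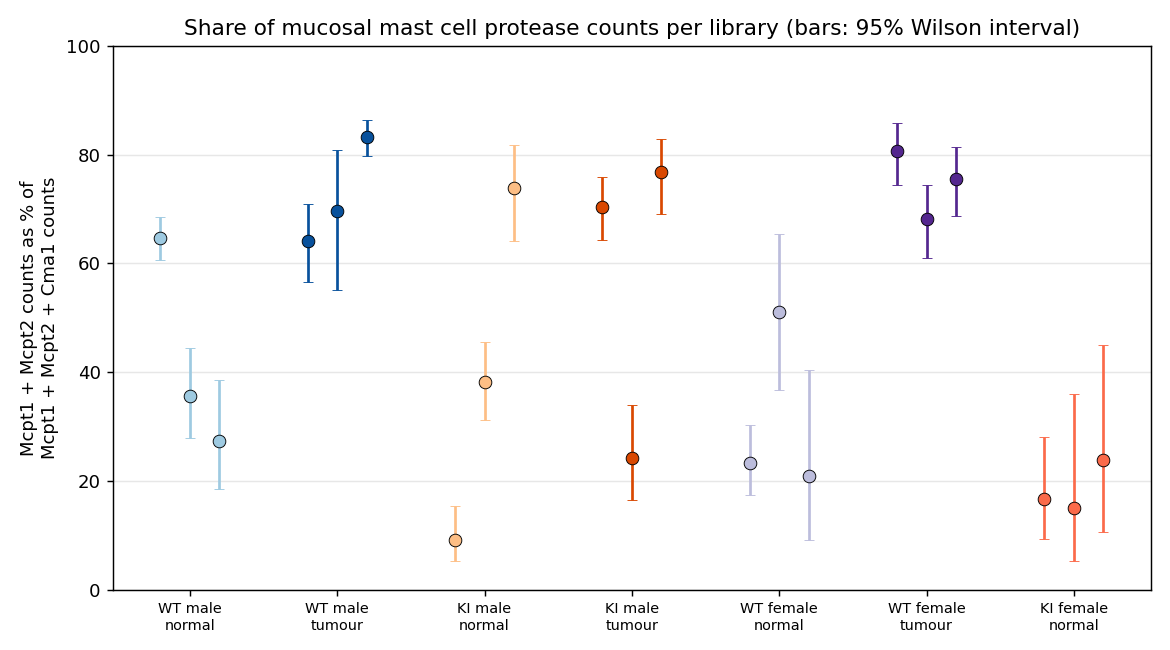
Counts of Mcpt1 and Mcpt2 as a percentage of the counts of Mcpt1, Mcpt2 and Cma1 in each library, with 95% Wilson intervals, for the 7 groups (WT, wild-type; KI, knock-in). The wild-type female tumours lie between 68.1% and 80.8% and all 6 female normal libraries at or below 51.2%, while knock-in males range widely in both tissues.

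In normal colon the genotypes were compared within each sex. In males no member was called by edgeR, none had an unadjusted p under 0.05, as 3.34% of all genes had, and none was called by DESeq2, while only 2 of the 15936 genes tested, 0.0126%, were called in either direction. Hdc had a log2 fold change of -0.83, knock-in against wild-type (SE 0.73 and adjusted p 1.00 by edgeR), and 0.25 without wild-type normal library 1. In females 0 of 9 members were called at an adjusted or an unadjusted p under 0.05 by edgeR, or by DESeq2, where 16.0% of all genes were called in either direction and 31.2% had an unadjusted p under 0.05. Hdc had a log2 fold change of 0.32 (SE 0.99 and adjusted p 0.865 by edgeR), Cma1 of -0.89 (SE 0.47 and adjusted p 0.210 by edgeR) and Mcpt2 of -2.51 (SE 1.21 and adjusted p 0.166 by edgeR).

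Behind the Mcpt2 value were 4, 1 and 1 counts in knock-in female and 25, 8 and 3 counts in wild-type female normal colon. Cpa3, Mcpt2 and Tpsb2 did not overlap between the genotypes, 3 of 9 members, all lower in knock-in libraries, against 18.2% of all genes lower without overlap. In the test of whether the genotype effect differed between the sexes, no member was called by edgeR or DESeq2 or had an unadjusted p under 0.05, where 2.54% of all genes were called in either direction and 17.7% had such a p. For Hdc that difference was 1.15 (SE 1.23 and adjusted p 0.680 by edgeR) and for Cma1 -0.83 (SE 0.65 and adjusted p 0.541 by edgeR).

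All 9 members had lower mean levels in female than in male normal colon, in both genotypes. No share over all genes was computed for this count. The median log2 fold change over all genes tested was -0.004 in wild-type and -0.005 in knock-in mice. The members vary together, so these are not 9 separate results. In wild-type males, library 1 was the highest of its group for all 9. In wild-type mice Hdc was called lower in females (log2 fold change -2.72 with SE 0.87, adjusted p 0.0428 by edgeR), 1 of 9 members where 10.2% of all genes were called lower, and 5 of 9 had an unadjusted p under 0.05, against 31.6% of all genes. Mcpt4 and Tpsb2, 2 of 9, were lower without overlap, against 17.4% of all genes. For Hdc, male library 3, at 0.398 CPM, lay within the female range, so the groups overlapped. The call was lost when any of 5 of the 6 libraries was left out, with adjusted p between 0.0690 and 0.273, and without the low-count filter (edgeR adjusted p 0.0631), and it held without male library 3. With only these 6 libraries Hdc did not pass the low-count filter. Mcpt1 had a log2 fold change of -2.50 (SE 0.98 and adjusted p 0.0917 by edgeR) and was called by DESeq2 (adjusted p 0.0268). With any 1 library left out, the Mcpt1 value ranged from -3.36 to -0.885 (edgeR adjusted p 0.0511 to 0.625). Cma1 had -0.85 (SE 0.45 and adjusted p 0.207 by edgeR).

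In knock-in mice edgeR called no member between female and male normal colon, where 0.402% of all genes were called lower, although 5 of 9 had an unadjusted p under 0.05, against 15.3% of all genes, and DESeq2 called 3. The share of all genes called by DESeq2 was not computed, and the edgeR shares are not a background for these 3 calls. Cma1 gave 2.98, 1.91 and 1.22 CPM in females and 11.1, 6.77 and 2.07 CPM in males (log2 fold change -1.68 with SE 0.47, adjusted p 0.0931 by edgeR, DESeq2 adjusted p 0.0224). Mcpt2 had a log2 fold change of -3.30 (SE 1.14 and adjusted p 0.169 by edgeR, DESeq2 adjusted p 0.0311) and Tpsb2 of -2.88 (SE 0.97 and adjusted p 0.161 by edgeR, DESeq2 adjusted p 0.0487). Hdc had -1.57 (SE 0.85 and adjusted p 0.398 by edgeR). The groups did not overlap for 5 members, Cpa3, Mcpt1, Mcpt2, Tpsb2 and Ms4a2, all lower in females, against 9.70% of all genes lower without overlap.

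Beside these values, the summed level of 9 smooth muscle markers was 2018 to 4680 CPM in wild-type female and 2934 to 9791 CPM in wild-type male normal colon. In knock-in mice it was 6994 to 9834 CPM in females and 4648 to 8466 CPM in males. Lower mast cell gene levels in females thus stood beside lower smooth muscle means in wild-type mice and higher ones in knock-in mice, and the part of muscle in the result was not tested.

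The members varied together to different degrees. Over the 21 libraries, which share the groups and differ in depth, Pearson's r of log2 CPM was 0.96 between Mcpt1 and Mcpt2 and stayed at 0.92 within groups, after subtraction of group means. Cpa3 and Tpsb2 had r of 0.89 in both calculations, and Tpsb2 and Ms4a2 0.88 and 0.84. Hdc correlated with Mcpt1 at 0.78 over all libraries and 0.28 within groups, and with Cpa3 at 0.78 and 0.69. Cma1 correlated with Mcpt1 at 0.48 over all libraries and 0.02 within groups. These are descriptions without tests.

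The genes whose levels were most like those of Hdc over the 21 libraries were Ifitm3, an interferon-induced membrane protein (Pearson's r 0.95), Plekhs1 (0.95), Tnfrsf12a, the receptor of the cytokine TWEAK (0.95), the keratin Krt23 (0.94) and the transcription factor Tcf4 (0.94). No mast cell gene was among these 5. The 5 most like Cpa3 were Tpsb2 (0.89), Mcpt1 (0.87), Tlr2 (0.86), Mcpt2 (0.84) and Hs3st3a1 (0.84), and those most like Mcpt2 were Mcpt1 (0.96), Ppef1 (0.87), Hydin (0.86), Smpx (0.86) and Cep97 (0.86). Members thus held the first rank for Cpa3 and Mcpt2 and none of the ranks for Hdc. The Hdc ranks include the male tumours with which Hdc was chosen, so they are a description that is not independent of the choice. Over all libraries the highest r of Hdc with a member was 0.81, with Tpsb2 (0.54 within groups). Within groups, r with Hdc was 0.72 to 0.84 for its 5 genes. With Mcpt2 it was 0.92 for Mcpt1 and 0.53 to 0.65 for the others.

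Histamine is broken down, transported and sensed by the products of other genes. Of 8 tested genes of histamine handling, 2 were called higher and 3 lower in wild-type male tumours, 0 higher and 2 lower in knock-in male tumours, and 1 higher and 3 lower in wild-type female tumours. Of all genes, 16.5% were called higher and 19.3% lower in the first, 10.4% and 9.97% in the second, and 25.0% and 24.0% in the third comparison. Aoc1, diamine oxidase, which degrades extracellular histamine, gave 67.8, 109 and 99.5 CPM in wild-type male tumours against 261, 307 and 394 CPM in normal colon (log2 fold change -1.80 with SE 0.24, adjusted p 3.31e-05 by edgeR). It fell in knock-in male tumours by 0.97 (SE 0.23 and adjusted p 0.00939 by edgeR) and in wild-type female tumours by 2.27 on the log2 scale (SE 0.24 and adjusted p 1.22e-06 by edgeR). No tumour library reached the lowest normal library in any of the 3 comparisons.

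Hnmt, the enzyme that inactivates histamine inside cells, was at 0.288, 0.291 and 0 CPM in wild-type male tumours against 1.42, 0.674 and 2.79 CPM in normal colon (log2 fold change -3.10 with SE 0.80, adjusted p 0.00573 by edgeR). In knock-in male tumours it stood at 1.29, 1.54 and 1.17 CPM against 1.5, 2.03 and 0.692 CPM, with overlap (log2 fold change -0.08 with SE 0.58, adjusted p 0.938 by edgeR), and without normal library 2 the sign turned to 0.25. In wild-type female tumours it fell by 1.74 on the log2 scale (SE 0.67 and adjusted p 0.0383 by edgeR), a call that was lost without normal library 1 or 3 or tumour library 1 or 3 (adjusted p 0.0831, 0.109, 0.130 and 0.151), without the libraries numbered 152 and above (0.0754), with library totals as scaling (0.0555) or with the replicate block (0.0655). The wild-type female groups overlapped.

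Among the histamine receptors, Hrh1 fell in all 3 tumour comparisons. The log2 fold changes were -1.66 in wild-type males (SE 0.29 and adjusted p 0.000295 by edgeR), -0.90 in knock-in males (SE 0.27 and adjusted p 0.0266 by edgeR) and -2.19 in wild-type females (SE 0.28 and adjusted p 6.62e-06 by edgeR). The knock-in call was lost without tumour library 3 (log2 fold change -0.65, edgeR adjusted p 0.101) or normal library 2 or 3 (0.0544 and 0.0906), without the libraries numbered 152 and above (0.0656) and with the compared groups alone (0.110). Hrh3 was called higher in wild-type male tumours (log2 fold change 2.76 with SE 1.02, adjusted p 0.0419 by edgeR), from 0.189, 0.300 and 0.199 CPM to 2.16, 0.873 and 1.47 CPM. That call did not hold with the replicate number as a block (adjusted p 0.0868) or without any 1 of the 6 libraries (0.0507 to 0.151), without the low-count filter (0.0584) or by DESeq2 (0.0680). Hrh2 was not called in any of the 3, and Hrh4 had at most 2 counts.

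Transporters that carry histamine across the membrane were called in wild-type tumours. Slc29a4 rose in wild-type males (log2 fold change 1.57 with SE 0.42, adjusted p 0.00725 by edgeR), and Slc22a3 rose in wild-type females (log2 fold change 4.14 with SE 0.62, adjusted p 2.60e-05 by edgeR). In wild-type males Slc22a3 had a log2 fold change of 0.51 (SE 0.51 and adjusted p 0.467 by edgeR). Its tumour effect differed between the sexes, female minus male, by 3.63 (SE 0.81 and adjusted p 0.0378 by edgeR), where 1.12% of all genes were called. This difference was not examined under the other settings or with single libraries left out.

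Of 10 tested other mast cell genes, 3 were called higher and 3 lower in wild-type male, 1 and 2 in knock-in male, and 3 and 5 in wild-type female tumours, beside the shares of all genes given for histamine handling. Gata2, a transcription factor of mast cells and their progenitors, rose in wild-type males (log2 fold change 1.86 with SE 0.51, adjusted p 0.00864 by edgeR) and wild-type females (1.89 with SE 0.57, adjusted p 0.0110 by edgeR). In knock-in males its log2 fold change was -0.40 (SE 0.50 and adjusted p 0.591 by edgeR). Which cells carried Gata2 was not tested. The male call was lost without tumour library 1 (log2 fold change 1.21, edgeR adjusted p 0.0929) or with a fit of the compared groups alone (0.0574), and the female call without tumour library 3 (0.0524) or the libraries numbered 152 and above (0.105).

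Kit, the receptor of stem cell factor on mast cells, fell by 1.51 in wild-type males (SE 0.24 and adjusted p 0.000177 by edgeR), by 0.86 in knock-in males (SE 0.24 and adjusted p 0.0183 by edgeR) and by 1.42 in wild-type females (SE 0.24 and adjusted p 0.000107 by edgeR), all on the log2 scale. Kit also marks interstitial cells of Cajal, the pacemaker cells of the gut muscle, and of 4 markers of these cells, Kit included, 4, 2 and 4 were called lower in the same comparisons. The knock-in call of Kit was lost without tumour library 2 (log2 fold change -0.73, edgeR adjusted p 0.0713) or 3 (-0.67, edgeR adjusted p 0.0717), without the libraries numbered 152 and above (0.0724) and with the compared groups alone (0.102).

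Tpsg1, a membrane-anchored tryptase, fell by 2.43 in wild-type males (SE 0.39 and adjusted p 0.000154 by edgeR), by 1.48 in knock-in males (SE 0.36 and adjusted p 0.00939 by edgeR) and by 2.78 in wild-type females (SE 0.38 and adjusted p 1.12e-05 by edgeR). The knock-in call was lost with the compared groups alone (adjusted p 0.0520). Its relative Tpsab1 was too low for the test, with at most 12 counts in a library. Srgn, the core protein of granule proteoglycans, rose in wild-type females (log2 fold change 1.64 with SE 0.36, adjusted p 0.00111 by edgeR).

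Il1rl1, the receptor for interleukin 33 on mast cells and other immune cells, rose in all 3 comparisons, with a log2 fold change of 2.52 in wild-type males (SE 0.94 and adjusted p 0.0471 by edgeR), 3.84 in knock-in males (SE 1.01 and adjusted p 0.0175 by edgeR) and 5.47 in wild-type females (SE 1.11 and adjusted p 0.000865 by edgeR). The wild-type male call was lost without 5 of the 6 libraries in turn, all but normal library 2 (adjusted p 0.0732 to 0.143), without the low-count filter (0.0687) and with the compared groups alone (0.110). The knock-in call was lost without normal library 1 (0.0583) or the libraries numbered 152 and above (0.0540). Il1rl1 had means of 178 CPM in wild-type and 130 CPM in knock-in male tumours, where Cpa3 had 2.03 and 1.53 CPM. Which cells carried Il1rl1 was not tested. Il33 itself rose by 1.28 in wild-type males (SE 0.41 and adjusted p 0.0227 by edgeR), by 2.09 in knock-in males (SE 0.42 and adjusted p 0.00441 by edgeR) and by 3.24 in wild-type females (SE 0.44 and adjusted p 1.65e-05 by edgeR). In wild-type males Il33 was no longer called without normal library 1 or 3 or tumour library 1 (adjusted p 0.0546, 0.107 and 0.122).

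Other growth and recruitment factors gave a mixed picture. Tgfb1, which induces the mucosal chymases in cultured mast cells, rose in wild-type male (log2 fold change 0.88 with SE 0.17, adjusted p 0.000592 by edgeR) and wild-type female tumours (2.57 with SE 0.18, adjusted p 4.74e-08 by edgeR) and was not called in knock-in male tumours. Kitl, stem cell factor, had log2 fold changes of 0.74 (SE 0.30 and adjusted p 0.0670 by edgeR), 0.74 (SE 0.30 and adjusted p 0.0906 by edgeR) and 0.64 (SE 0.30 and adjusted p 0.0899 by edgeR) in wild-type males, knock-in males and wild-type females. Kitl was called in wild-type males by DESeq2 (adjusted p 0.0400) and with the compared groups alone (0.00206), and in wild-type females with library totals as scaling (0.0441) and with the compared groups alone (0.00355). The knock-in value rested on tumour library 1, at 460 CPM against 125 and 172 CPM in the others, and was -0.07 without it, whereas Kitl was called without tumour library 2 (adjusted p 0.0163) or 3 (0.05). Il9r, the interleukin 9 receptor, fell by 1.71 in knock-in males (SE 0.59 and adjusted p 0.0465 by edgeR) and by 2.75 in wild-type females (SE 0.78 and adjusted p 0.00700 by edgeR). The knock-in call was lost with any library but tumour library 3 left out (adjusted p 0.0550 to 0.154), with library totals as scaling (0.0548), without the low-count filter (0.0554) and with the compared groups alone (0.0907). The female call was lost without the libraries numbered 152 and above (0.0512). Il3, Il4, Il9, Il13 and Tslp, 5 of 9 listed factors, were too low for the test.

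Of 12 genes that signal below the IgE receptor, in wild-type males 3 were called higher and none lower, in knock-in males none higher and 3 lower, whereas wild-type females had 6 higher and 1 lower. Of all genes 16.5% were called higher in wild-type males, 9.97% lower in knock-in males and 25.0% higher in wild-type females. Phospholipase Plcg1 rose by 1.06 (SE 0.17 and adjusted p 0.000122 by edgeR) in wild-type males and by 1.42 (SE 0.17 and adjusted p 2.96e-06 by edgeR) in wild-type females, and Plcg2 by 0.93 (SE 0.22 and adjusted p 0.00294 by edgeR) and 1.45 (SE 0.23 and adjusted p 4.21e-05 by edgeR). The adaptor Lcp2 rose by 1.24 (SE 0.36 and adjusted p 0.0116 by edgeR) and 1.25 (SE 0.37 and adjusted p 0.00861 by edgeR) in the same comparisons, the male call being lost without normal library 3 (adjusted p 0.0571). In knock-in males the kinase Btk fell by 1.33 (SE 0.43 and adjusted p 0.0365 by edgeR), the phosphatase Inpp5d by 0.87 (SE 0.29 and adjusted p 0.0403 by edgeR) and the adaptor Lat2 by 0.86 (SE 0.29 and adjusted p 0.0461 by edgeR). All 3 of these calls were lost without normal library 2 (adjusted p 0.136, 0.119 and 0.0862), tumour library 1 (0.0651, 0.0707 and 0.0646) or tumour library 2 (0.128, 0.138 and 0.148), without the libraries numbered 152 and above (0.0559, 0.0511 and 0.0610), and with a fit of the compared groups alone (0.0852, 0.0748 and 0.0969). Inpp5d and Lat2 were also lost with library totals as scaling (0.0597 and 0.0656) and without the low-count filter (0.0549 and 0.0625). Inpp5d was also lost without normal library 3 (0.0718), and Lat2 without any 1 library (0.0524 to 0.148) and with the replicate block (0.0659). Fcer1g, the signalling chain shared with other Fc receptors, rose in wild-type females (log2 fold change 1.21 with SE 0.30, adjusted p 0.00256 by edgeR) and had 0.65 (SE 0.29 and adjusted p 0.0853 by edgeR) in wild-type males and -0.07 (SE 0.29 and adjusted p 0.888 by edgeR) in knock-in males. In wild-type males Fcer1g was called without normal library 2 (0.0351). These genes are active in many immune cells and, for several, in epithelium.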

How the data were processed

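Counts per gene were deposited by the authors as a raw count table of 24062 genes for 21 mouse colon libraries from ribosomal RNA-depleted total RNA. Trimmomatic, HISAT2, featureCounts, DESeq2 and the build mm10 are named, per the submitters' processing notes, and versions, annotation and strand setting are not given in the sources used here. Among the columns for knock-in female normal colon, 2 share a name and were used as unnumbered replicates. Ly6g, Siglecf and Adgre1 were not analysed here.

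The members and gene lists were chosen with earlier results of these data known. All 9 members are named. From each list, up to 4 genes per comparison could be named, ranked by the size of the log2 fold change and required to pass the threshold and to reach a group mean of 20 counts, and always the histamine enzymes and receptors, Kit, Kitl, Gata2, Fcer1g and Tpsab1. For Hdc, Cpa3 and Mcpt2, the 5 genes with the highest Pearson's r of log2 CPM (prior count 2) over 21 libraries are named, without predicted genes. The lists also held basophil, neutrophil, eosinophil, macrophage, smooth muscle, epithelial, enteroendocrine and Cajal cell markers.

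The edgeR quasi-likelihood test (version 4.0.16, R 4.3.3, limma 3.58.1; TMM, filterByExpr, robust fit, two-sided) was run on the counts of all 21 libraries in a single fit with 7 group terms, with Benjamini-Hochberg adjustment over 15936 genes and a threshold of 0.05, in 8 comparisons of groups and 2 interactions. The scripts were tested on simulated data. Total counts ran from 3414123 to 26174008 per library. No 2 replicate libraries agreed within counting noise. Alternatives were other scalings, no filter, DESeq2 1.42.0, only the compared groups, a replicate block over the 18 numbered libraries, omission of the libraries numbered 152 and above, and omission of each library. Neutrophil sums without Ltf and levels per kilobase without wild-type male tumour library 3 were added after seeing the data. Libraries of the same number deviated together in wild-type male tumours and normal colon, with correlations of 0.169, 0.174 and 0.215. The numbers come from the labels. This was read as possible pairing in that comparison only, where each library matched best with its own number. Between knock-in and wild-type male normal colon, mice of different genotype, libraries 1 had a correlation of 0.461. Libraries 2 and 3 had -0.206 and -0.0697 there. Such correlations thus also arise without pairing, and pairing was not shown. The main fit held group terms only and did not model it. The replicate block was fitted over all 18 numbered libraries together, so it was not a paired test of wild-type male tumours and normal colon alone.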

Additional observations from a re-analysis of the deposited data

How the results depend on the processing

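Of the alternatives for the members, DESeq2 size factors and library totals changed no call. The number of members called moved in wild-type female against wild-type male normal colon from 1 to 0 without the low-count filter, 2 with DESeq2 and 0 with only the compared groups, where Hdc did not pass the filter. In knock-in female against knock-in male normal colon it moved from 0 to 3 with DESeq2. No share of all genes called by DESeq2 was computed to set beside these counts. In wild-type female tumours it was 3 without the libraries numbered 152 and above and 5 with only the compared groups. With single libraries left out, it ranged from 1 to 3 in wild-type male tumours, from 2 to 4 in wild-type female tumours and from 0 to 1 in wild-type female against male normal colon. Signs also turned, for Fcer1a between male tumours with the replicate block (-0.22) and for Il3ra in knock-in male tumours without the libraries numbered 152 and above (-0.033). With single libraries left out, log2 fold changes ranged from -0.65 to 1.78 for Cpa3 in wild-type male tumours, with -0.05, -0.12 and -0.65 without normal library 2, normal library 3 and tumour library 3, and from -0.35 to 1.32 in knock-in male tumours. For Hdc between genotypes in normal colon they ranged from -1.43 to 0.25 in males and from -0.57 to 0.72 in females. In knock-in male tumours they ranged from -0.40 to 0.25 for Hnmt, from -0.070 to 1.03 for Kitl, from -0.29 to 0.15 for Fcer1g, from -0.41 to 0.076 for Lcp2 and from -0.14 to 0.22 for Il3ra. The cause was not tested. The replicate block left the members called at 1 in wild-type male, 4 in wild-type female and 0 in knock-in male tumours. It ended the calls of Hrh3 in wild-type males (2.63, adjusted p 0.0868), Hnmt in wild-type females (-1.79, adjusted p 0.0655) and Lat2 in knock-in males (-0.91, adjusted p 0.0659) and changed no other call. Pairing was not shown in wild-type males, and elsewhere the libraries share a number only. The alternatives for listed genes were chosen after seeing the data. Library totals as scaling moved the median of all genes to 0.15 in wild-type female tumours and to 0.10 between genotypes in female normal colon. Depth limits Fcer1a, Ms4a2 and Mcpt4 most, with more than 3 counts in 5, 12 and 13 of 21 libraries.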
